A study of Mus musculus with 10 samples.

Results

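The genes described here are 44 genes that mark the identity of endothelial cells, the cells that line blood and lymphatic vessels. They were taken from a list of symbols and matched to the gene identifiers of the deposited table, where all 44 were found among 52636 identifiers. Each was assigned to a single vessel class, which gave 28 genes of endothelium in general, 6 of capillaries, 4 of arteries, 4 of veins and 2 of lymphatic vessels. The tissue was the inguinal white fat pad, which lies under the skin, of C57BL/6 mice aged 6 months on a 65% high fat diet. The 5 knockout libraries were from animals whose Tcf7l2 alleles were floxed and that carried Adp-Cre, a transgene meant to remove Tcf7l2, a transcription factor of the Wnt pathway, from adipocytes. The 5 control libraries, labelled as wild type, were from animals with the same floxed alleles and no Cre in their titles. The deletion was thus aimed at fat cells and not at the endothelium, and the promoter behind Adp-Cre is not spelled out in the labels. The length of the diet is given as 16 weeks in the diet label, 12 weeks in the sample descriptions and 4 months in the treatment protocol.

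Adipose tissue is dense in capillaries, and their endothelium hands fatty acids, glucose and hormones to the fat cells. Endothelial cells hold together through VE-cadherin and claudin junctions, read blood flow and growth factors through receptors at their surface, and keep their identity through ETS, SOXF and related transcription factors. Arterial, venous and lymphatic endothelium differ by ephrin and Notch signals and, in lymphatic vessels, by the factor PROX1.

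Totals ran between 14032866 and 17782073 counts per library, so 3 counts corresponded to 0.172 to 0.205 CPM (counts relative to the library total, scaled with TMM factors) in knockouts and 0.176 to 0.203 CPM in controls. The targeted gene Tcf7l2 (ENSMUSG00000024985, GRCm38 chromosome 19, 55741820 to 55933654, plus strand) stood at 5.57, 6.14, 6.2, 5.58 and 5.68 CPM in knockouts 1 to 5, against 11.1, 10.5, 9.16, 11.4 and 11.1 CPM in controls 1 to 5. Every knockout library was below every control library, and the knockout mean was 54.7% of the control mean (log2 fold change -0.87, SE 0.096, edgeR quasi-likelihood test, adjusted p = 6.1e-04). The libraries carry the numbers 1 to 5 for controls and 6 to 10 for knockouts, so genotype and any handling that followed this order cannot be told apart. Each title also carries a further number that differs for every library and does not follow genotype, and its meaning is not given. The labels do not say outright that each library is its own animal, and the p-values measure the spread between these samples only.

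The endothelial identity genes that changed in the knockout fat were all lower, each by a modest amount. Of the 43 genes with enough counts to test, 16 fell, 0 rose and 27 did not pass. That is 37.2% lower, against 7.05% of all 15927 tested genes that were lower and 5.84% that were higher. The genes were chosen with earlier results of these data known, so these shares are a description and no independent support. The 16 that fell included the junction genes Pecam1 and Cdh5, the surface phosphatase Ptprb, the transcription factors Erg and Mecom and the capillary receptor Cd300lg, and stood at 65.0% to 80.0% of their control level. The median log2 fold change over the 43 genes was -0.28, against 0.00018 over all tested genes, and 40 of the 43 values were below 0. The 0 rising genes were 0 by DESeq2 and limma-voom too, with 1 gene, Prox1, above 0 at an unadjusted p below 0.05. In bulk tissue, fewer endothelial cells and less of these RNAs per cell cannot be told apart.

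In 9 of the 43 genes every knockout library was below every control library, and in 0 genes every knockout library was above. Over all tested genes, 4.45% had all knockouts below all controls and 4.55% had all knockouts above. The summed CPM of the 44 genes was 2155, 2369, 2204, 2343 and 2132 in knockouts 1 to 5, against 2939, 2804, 3149, 2804 and 2482 in controls 1 to 5. The sums did not overlap, and control 5 was the lowest control. Measured against the mean of the controls, 35 to 39 of the 43 genes were lower in each knockout library, against 33 in control 5 and 10 to 23 in the other controls.

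**Figure D1:**
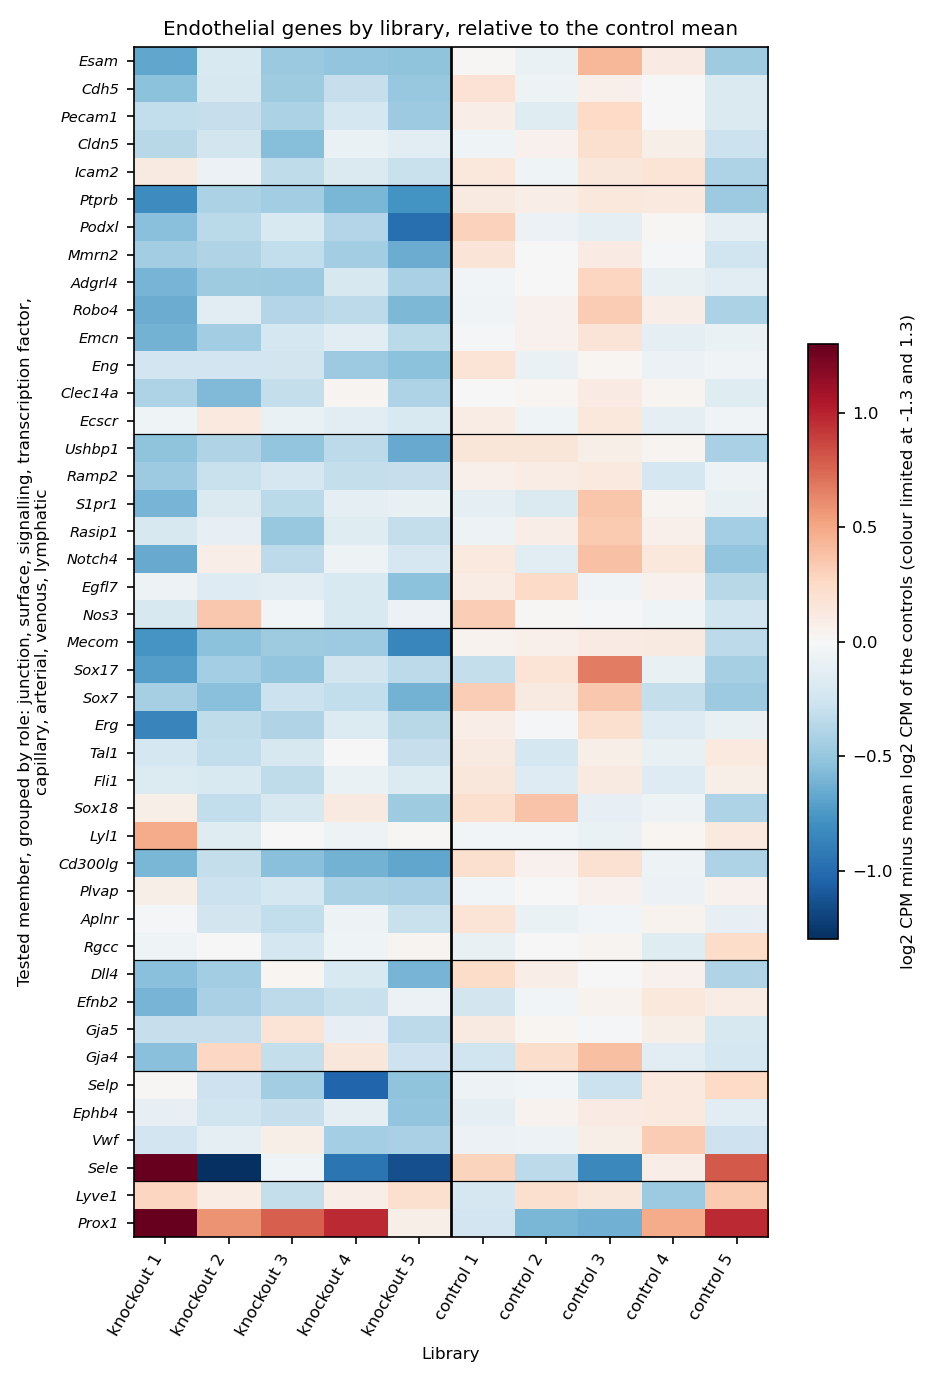
Log2 CPM of each tested endothelial gene in each library minus the mean log2 CPM of the 5 controls, with knockouts in the left block, controls in the right block and genes grouped by role; blue is lower, red is higher and the colour saturates at the ends of the scale. Blue fills most of the knockout block, control 5 is the bluest of the controls, and Prox1, Sele and Lyl1 stand out in red in knockout 1.

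The calls depended on the libraries and on what else was modelled. Without single libraries 7 to 23 genes were lower, with 7 without control 1, 9 without control 2 and 10 without knockout 5, when 2.06%, 1.92% and 3.04% of all tested genes were lower. A score of 786 transcripts annotated as intronic or as unproven loci was 0.441, 0.220, 0.464, 0.363 and 0.0562 (mean log2 CPM) in knockouts 1 to 5, against 1.08, 1.27, 0.727, 1.199 and 0.382 in controls 1 to 5. Control 5, the control with the lowest endothelial sum, was also the control with the lowest score and fell within the knockout range. With this score in the fit 0 of the 43 genes passed by edgeR although 14 reached an unadjusted p below 0.05, 33 values were below 0 and the median was -0.24. Over all tested genes this fit called 0.239% lower, so 0 of 43 lies near that share. DESeq2 without the covariate called 20 genes lower, when 8.51% of all tested genes were lower.

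Lymphocyte and muscle transcripts also moved with the libraries. The summed level of 10 B cell genes was 472, 28.4, 23.7, 59.7 and 38.0 CPM in knockouts 1 to 5, against 14.7, 17.3, 34.8, 19.6 and 14.5 CPM in controls 1 to 5. That of 10 muscle genes was 40.9 to 742 CPM in knockouts, highest in knockout 1, and 24.6 to 544 CPM in controls, highest in control 5. With a B cell score and a muscle score as covariates 2 of the 43 genes were lower, Mecom (-0.52, adjusted p = 0.049) and Plvap (-0.44, adjusted p = 0.021), when 1.2% of all tested genes were lower. Without knockout 1 and control 5, a choice made after seeing the data, 26 genes were lower, with 12.6% of all tested genes lower, and the median was -0.33. The summed level of 10 macrophage genes was 2687 to 3037 CPM in knockouts and 2574 to 3289 CPM in controls.

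**Figure D2:**
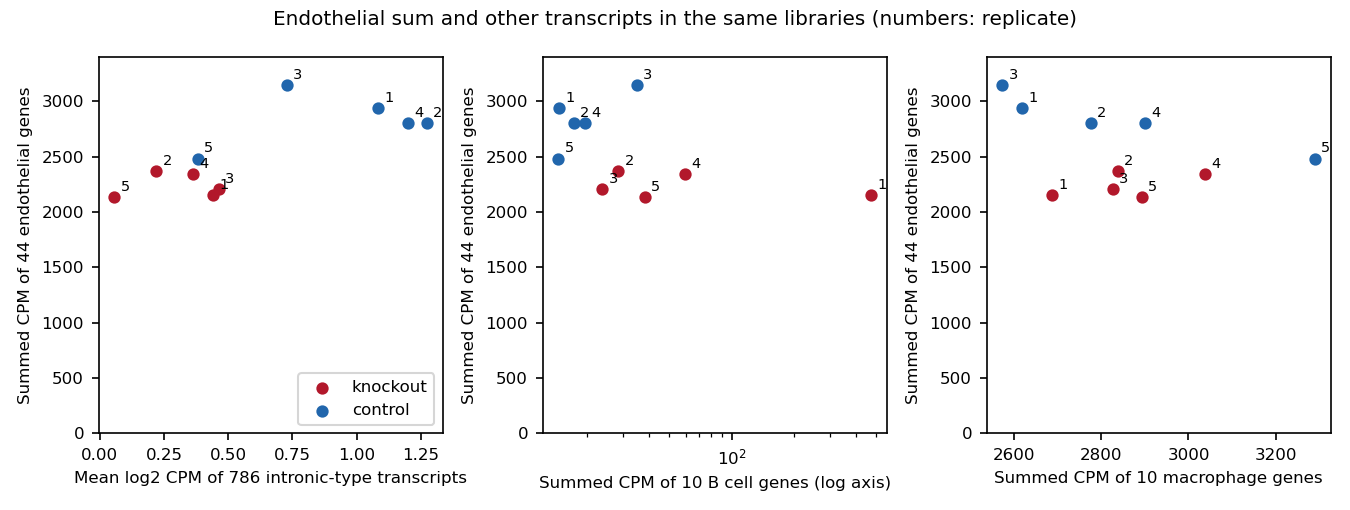
Summed CPM of the 44 endothelial genes in each library (vertical axes, from 0) against the mean log2 CPM of 786 intronic-type transcripts, the summed CPM of 10 B cell genes on a log axis, and the summed CPM of 10 macrophage genes; points are libraries, numbered by replicate, with knockouts in red and controls in blue. Control 5 lies among the knockouts on the intronic-type score, and knockout 1 lies apart on the B cell axis at 472 CPM.

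Junction genes fell in 3 of 5 cases, with a median log2 fold change of -0.35. Pecam1, which encodes the adhesion molecule CD31 at the contacts between endothelial cells (ENSMUSG00000020717, GRCm38 chromosome 11, 106654217 to 106750628, minus strand), had 278, 282, 261, 296 and 249 CPM in knockouts 1 to 5, against 367, 311, 414, 348 and 305 CPM in controls 1 to 5. The highest knockout lay just under the lowest control, so the groups did not overlap. Pecam1 averaged 273 ± 18.4 CPM in knockouts and 349 ± 44.2 CPM in controls (SD, n = 5 each; log2 fold change -0.35, SE 0.0868, adjusted p = 0.024), a call kept in 6 of the 10 fits that left out a library. Cdh5, the gene of VE-cadherin (ENSMUSG00000031871, chromosome 8, 104101625 to 104144511, plus strand), had 144, 181, 152, 169 and 149 CPM in knockouts, against 238, 199, 219, 209 and 183 CPM in controls. Its groups did not overlap either, and it fell by 0.40 on the log2 scale (SE 0.0835, adjusted p = 0.015), a call kept in all 10 fits that left out a library.

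Esam, an adhesion molecule of tight junctions, averaged 54.2 ± 6.76 CPM in knockouts and 76.7 ± 17.0 CPM in controls and fell by 0.50 (adjusted p = 0.035). Its groups overlapped, and the call held in 2 of the 10 fits with a library left out. Cldn5, the gene of claudin-5 at tight junctions, did not pass at 74.0 ± 9.18 CPM in knockouts and 89.6 ± 10.9 CPM in controls (log2 fold change -0.28, adjusted p = 0.083). Icam2, a ligand of leukocyte integrins, also did not pass, at -0.16 (adjusted p = 0.39).

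**Figure D3:**
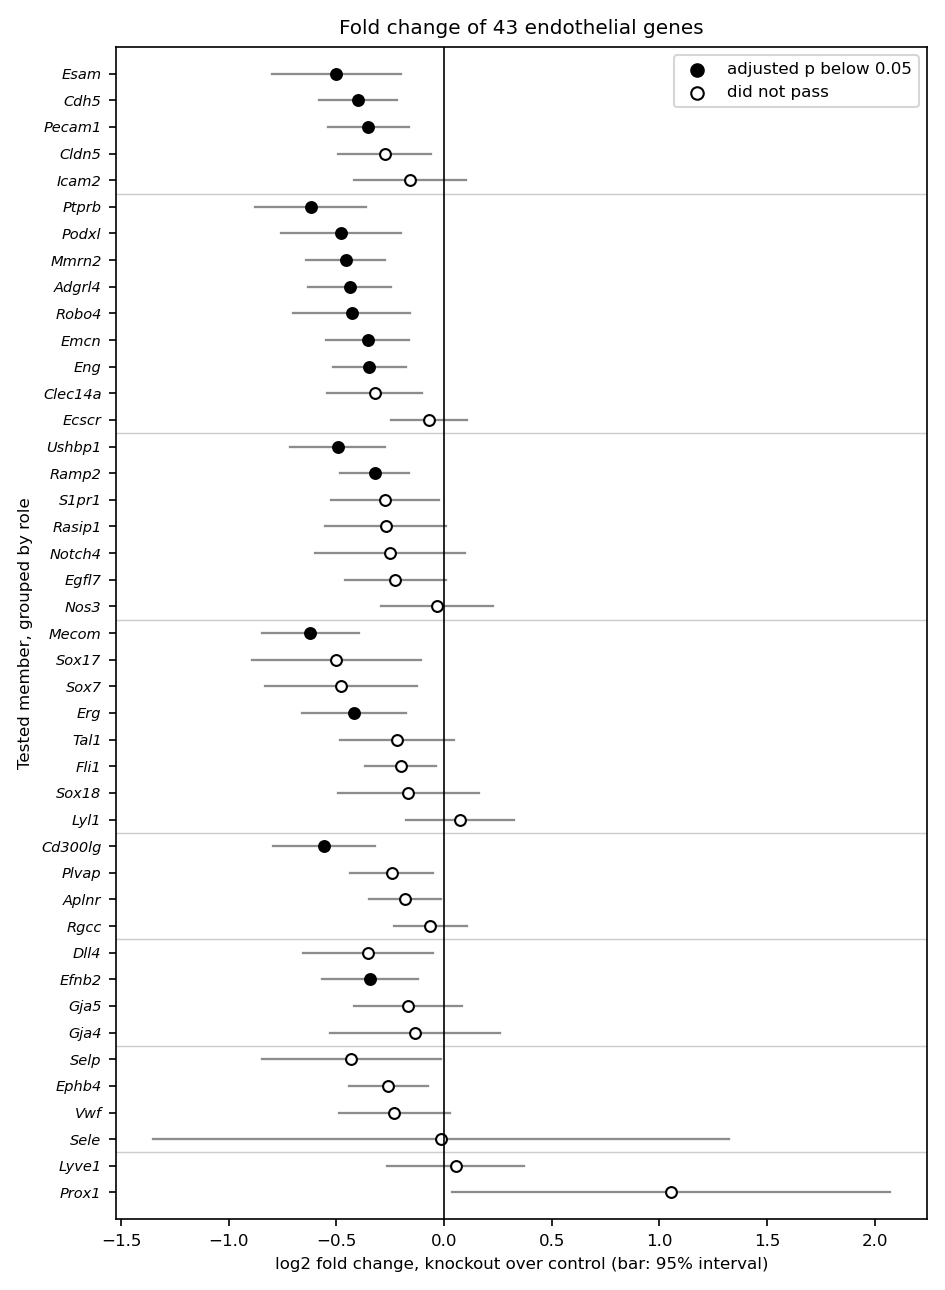
Log2 fold change, knockout over control, of the 43 tested endothelial genes grouped from top to bottom as junction, surface, signalling, transcription factor, capillary, arterial, venous and lymphatic genes; bars are 95% intervals, filled points have an adjusted p below 0.05 and open points did not pass. All 16 filled points lie left of 0, the surface genes hold 7 of them, and Prox1 and Sele have the widest intervals.

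Surface proteins and receptors, with the matrix protein gene Mmrn2 placed among them, held the highest share of calls, 7 of 9, with a median of -0.43. Emcn is counted here and again among the capillary genes. This grouping was made with results of these data known and the difference from other roles was not tested. Promoter windows from RefSeq, 250 bases before to 50 after the start on GRCm38.p6, were at hand for 24 of the 44 genes. Those of the 5 surface genes with a window are shown because this class held the highest share of calls, with the core AGGAAG or CGGAAG of ETS factors such as ERG and FLI1 in capitals where a script found it on either strand (on the other strand it reads CTTCCT or CTTCCG). The first 4 belong to genes that fell and the last to Clec14a, which did not pass. They lie at chr3:151437632-151437931 (plus strand) for Adgrl4, chr3:137340828-137341127 (plus) for Emcn, chr2:32646345-32646644 (plus) for Eng, chr9:37401722-37402021 (plus) for Robo4 and chr12:58269209-58269508 (minus) for Clec14a.
Adgrl4: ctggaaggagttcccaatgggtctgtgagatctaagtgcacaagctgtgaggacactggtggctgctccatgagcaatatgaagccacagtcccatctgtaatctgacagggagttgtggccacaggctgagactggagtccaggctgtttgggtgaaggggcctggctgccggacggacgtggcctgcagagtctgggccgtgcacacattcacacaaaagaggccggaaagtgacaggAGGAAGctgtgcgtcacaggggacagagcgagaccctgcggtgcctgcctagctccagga
Emcn: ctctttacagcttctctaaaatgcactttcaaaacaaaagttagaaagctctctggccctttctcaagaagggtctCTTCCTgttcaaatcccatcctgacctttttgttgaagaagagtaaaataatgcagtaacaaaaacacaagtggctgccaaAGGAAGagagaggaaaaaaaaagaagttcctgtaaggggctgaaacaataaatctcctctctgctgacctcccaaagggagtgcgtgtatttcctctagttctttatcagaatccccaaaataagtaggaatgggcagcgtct
Eng: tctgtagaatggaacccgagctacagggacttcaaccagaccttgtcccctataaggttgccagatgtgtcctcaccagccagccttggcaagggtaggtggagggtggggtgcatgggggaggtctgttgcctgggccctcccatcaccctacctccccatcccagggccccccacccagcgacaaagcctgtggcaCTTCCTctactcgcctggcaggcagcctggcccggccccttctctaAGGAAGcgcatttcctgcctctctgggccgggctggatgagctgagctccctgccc
Robo4: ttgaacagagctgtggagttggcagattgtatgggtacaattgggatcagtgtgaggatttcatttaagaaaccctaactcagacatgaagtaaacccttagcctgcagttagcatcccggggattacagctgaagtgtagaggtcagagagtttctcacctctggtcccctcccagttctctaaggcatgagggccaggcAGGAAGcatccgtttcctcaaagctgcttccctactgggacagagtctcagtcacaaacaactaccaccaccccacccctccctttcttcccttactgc
Clec14a: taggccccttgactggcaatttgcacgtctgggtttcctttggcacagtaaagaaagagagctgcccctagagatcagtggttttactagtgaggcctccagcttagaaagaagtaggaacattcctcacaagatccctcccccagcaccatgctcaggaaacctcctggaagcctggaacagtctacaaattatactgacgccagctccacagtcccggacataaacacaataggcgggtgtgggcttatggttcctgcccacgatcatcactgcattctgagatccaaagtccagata

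The ETS core was present in 17 of 31 windows of the endothelial genes (54.8%) and in 7 of 11 windows of those that fell (63.6%), against 46.5% of all 32851 windows. Emcn and Eng hold it at 2 places and Clec14a at none. The Wnt-pathway TCF/LEF core CTTTGNT, searched the same way, was in 5 of 31 windows (16.1%) against 18.6% of all. The SOX core CATTGT was in 6.45% against 12.6%, and the GATA core AGATAA in 6.45% against 11.2%. A match is a description of the letters and not a binding site.

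Ptprb, which encodes the phosphatase VE-PTP that acts on TIE2 and VE-cadherin (ENSMUSG00000020154, chromosome 10, 116275523 to 116389535, plus strand), had 148, 196, 190, 173 and 152 CPM in knockouts 1 to 5, against 283, 276, 287, 284 and 188 CPM in controls 1 to 5. Controls 1 to 4 lay close together and control 5 fell within the knockout range. It averaged 172 ± 21.6 CPM in knockouts and 264 ± 42.3 CPM in controls, 65.1% of the control level (log2 fold change -0.62, SE 0.119, adjusted p = 0.011). Mmrn2, the gene of the vessel matrix protein multimerin-2 (ENSMUSG00000041445, chromosome 14, 34375465 to 34404287, plus strand), had 49.2, 51.2, 53.7, 49.0 and 42.9 CPM in knockouts, against 75.7, 66.8, 72.6, 66.6 and 56.1 CPM in controls. The groups did not overlap, and Mmrn2 fell by 0.46 (SE 0.0843, adjusted p = 0.0095). Both calls held in all 10 fits with a library left out.

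The receptor gene Adgrl4, which encodes an adhesion G protein-coupled receptor, averaged 96.0 ± 9.68 CPM in knockouts and 130.2 ± 15.8 CPM in controls and fell by 0.44 (adjusted p = 0.014), with no overlap between the groups. Podxl, the gene of the luminal sialomucin podocalyxin, averaged 30.4 ± 5.83 CPM in knockouts and 42.3 ± 5.51 CPM in controls and fell by 0.48 (adjusted p = 0.033). Eng, which encodes the co-receptor endoglin for BMP and TGF-beta ligands, averaged 35.7 ± 3.43 CPM in knockouts and 45.4 ± 3.65 CPM in controls and fell by 0.35 (adjusted p = 0.019). Emcn, endomucin, a sialomucin of capillaries and veins, stood at 39.3 ± 4.95 CPM in knockouts and 50.2 ± 4.14 CPM in controls (log2 fold change -0.35, adjusted p = 0.026). These 4 genes had no overlap between knockouts and controls, and their calls held in 10 of 10 fits with a library left out for Adgrl4, 9 for Eng and 5 each for Podxl and Emcn. Robo4, an endothelial roundabout receptor, overlapped between groups at 33.6 ± 4.66 CPM in knockouts and 45.3 ± 8.12 CPM in controls (log2 fold change -0.43, adjusted p = 0.043) and held in 2 of 10 fits. The lectin gene Clec14a, whose protein binds multimerin-2, did not pass at 22.3 ± 3.74 CPM in knockouts and 27.9 ± 1.85 CPM in controls (adjusted p = 0.056), nor did the surface glycoprotein gene Ecscr at -0.07 (adjusted p = 0.60).

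Signalling genes fell in 2 of 7 tested cases. Ushbp1, a harmonin-binding protein gene enriched in endothelium, averaged 63.6 ± 5.39 CPM in knockouts and 89.7 ± 13.4 CPM in controls and fell by 0.49 (adjusted p = 0.014). Its control 5, at 66.5 CPM, lay within the knockouts while the other controls stood at 90.8 to 98.8 CPM. Ramp2, the partner that makes an adrenomedullin receptor of the calcitonin receptor-like receptor, averaged 66.8 ± 4.13 CPM in knockouts and 83.5 ± 8.23 CPM in controls and fell by 0.32 (adjusted p = 0.020), a call kept in 8 of 10 fits with a library left out. Of the Ramp2 exon length 33.4% overlaps Vps25 on the same strand, so its reads may be shared or lost. Vps25 was not among the tested genes. The Ramp2 relative Ramp3 had 0 to 5 counts per library and was not tested.

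Nos3, the gene of endothelial nitric oxide synthase (ENSMUSG00000028978, chromosome 5, 24364810 to 24384474, plus strand), had 26.7, 39.4, 30.1, 26.9 and 29.4 CPM in knockouts 1 to 5, against 38.6, 31.2, 30.6, 29.9 and 25.8 CPM in controls 1 to 5. The groups overlapped almost wholly, with 30.5 ± 5.20 CPM in knockouts and 31.2 ± 4.65 CPM in controls. The log2 fold change was -0.03, with a 95% interval of -0.30 to 0.23 (adjusted p = 0.88), and 32.3% of its exon length overlaps antisense genes. The sphingosine 1-phosphate receptor gene S1pr1 (-0.28, adjusted p = 0.13), the Notch receptor gene Notch4 (-0.25, adjusted p = 0.31), the lumen gene Rasip1 (-0.27, adjusted p = 0.17) and Egfl7, host of miR-126 (-0.23, adjusted p = 0.18), did not pass. Exons of Rasip1 overlap other genes over 42.9% of their length and those of Egfl7 over 11.2%, with Sox17 at 16.8% and Selp at 14.1% in the groups that follow. The tested partner of Egfl7, Agpat2 on the other strand, was the more abundant gene, at 756 CPM in knockouts and 641 CPM in controls. The tested partners of Nos3 and Rasip1 had group means of only 0.684 to 1.90 CPM.

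Of 8 transcription factors, 2 fell, with a median log2 fold change of -0.32. Mecom, the zinc finger factor EVI1 (ENSMUSG00000027684, chromosome 3, 29951296 to 30548008, minus strand), had 19.3, 22.8, 23.9, 23.8 and 18.3 CPM in knockouts 1 to 5, against 34.1, 34.7, 35.6, 35.8 and 26.1 CPM in controls 1 to 5. The groups did not overlap, and control 5 stood well below the other controls. Mecom averaged 21.6 ± 2.64 CPM in knockouts and 33.2 ± 4.06 CPM in controls and had the smallest p of the 43 genes (log2 fold change -0.62, SE 0.104, adjusted p = 0.0061). Its call held in all 10 fits with a library left out. The ETS factor gene Erg fell by 0.42, at 28.3 ± 4.57 CPM in knockouts and 37.7 ± 3.96 CPM in controls (adjusted p = 0.033), with no overlap, and held in 4 of 10 fits. Its relative Fli1, also used by blood cells, was at -0.20 (adjusted p = 0.096).

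The SOXF genes gave -0.48 for Sox7 (adjusted p = 0.070), -0.50 for Sox17 (adjusted p = 0.084) and -0.17 for Sox18 (adjusted p = 0.48), none of which passed. SOX17 acts in arteries and SOX18 in lymphatic specification, though both genes were assigned to the general class. The helix-loop-helix gene Tal1 of blood and endothelium was at -0.22 (adjusted p = 0.24). Its paralog Lyl1 had 17.9, 11.5, 12.9, 12.3 and 12.9 CPM in knockouts 1 to 5, against 12.5, 12.5, 12.1, 13.0 and 14.01 CPM in controls 1 to 5. Knockout 1 alone was high, and the log2 fold change was 0.07 (SE 0.116, adjusted p = 0.70). The same library had the highest B cell and T cell sums (472 and 168.6 CPM); their part in this value was not tested.

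Capillary genes were mixed. The 6 genes of capillaries held 2 calls among 5 tested, Emcn and Cd300lg, with a median of -0.24 and a summed level of 367 to 405 CPM in knockouts and 436 to 496 CPM in controls. Cd300lg, which encodes the sialomucin-like receptor nepmucin (ENSMUSG00000017309, chromosome 11, 102041509 to 102055620, plus strand), had 101, 123, 105, 99.6 and 95.6 CPM in knockouts 1 to 5, against 176, 159, 175, 146 and 115 CPM in controls 1 to 5. Control 5 alone lay within the knockout range. It fell to 105 ± 10.6 CPM in knockouts, against 154 ± 25.2 CPM in controls (log2 fold change -0.56, SE 0.110, adjusted p = 0.012), and held in all 10 fits with a library left out.

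Rgcc, a cell cycle regulator gene enriched in capillary endothelium (ENSMUSG00000022018, chromosome 14, 79288756 to 79301645, minus strand), had 157, 164, 140, 157 and 168 CPM in knockouts 1 to 5, against 153, 162, 167, 146 and 193 CPM in controls 1 to 5. The groups overlapped, and the log2 fold change was -0.06 with a 95% interval of -0.23 to 0.11 (SE 0.0785, adjusted p = 0.61). It was the most abundant of the 44 genes per length, at 171 CPM per kilobase of exon in knockouts and 179 CPM per kilobase in controls. Plvap, the gene of the diaphragm protein of fenestrae and caveolae, had 36.1, 28.1, 29.2, 25.8 and 25.6 CPM in knockouts, against 33.5, 34.2, 35.8, 32.5 and 35.7 CPM in controls. Knockouts 2 to 5 were below every control while knockout 1 was above them all, and Plvap did not pass (-0.24, SE 0.0887, adjusted p = 0.086). The apelin receptor gene Aplnr was at -0.18 (adjusted p = 0.13).

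**Figure D4:**
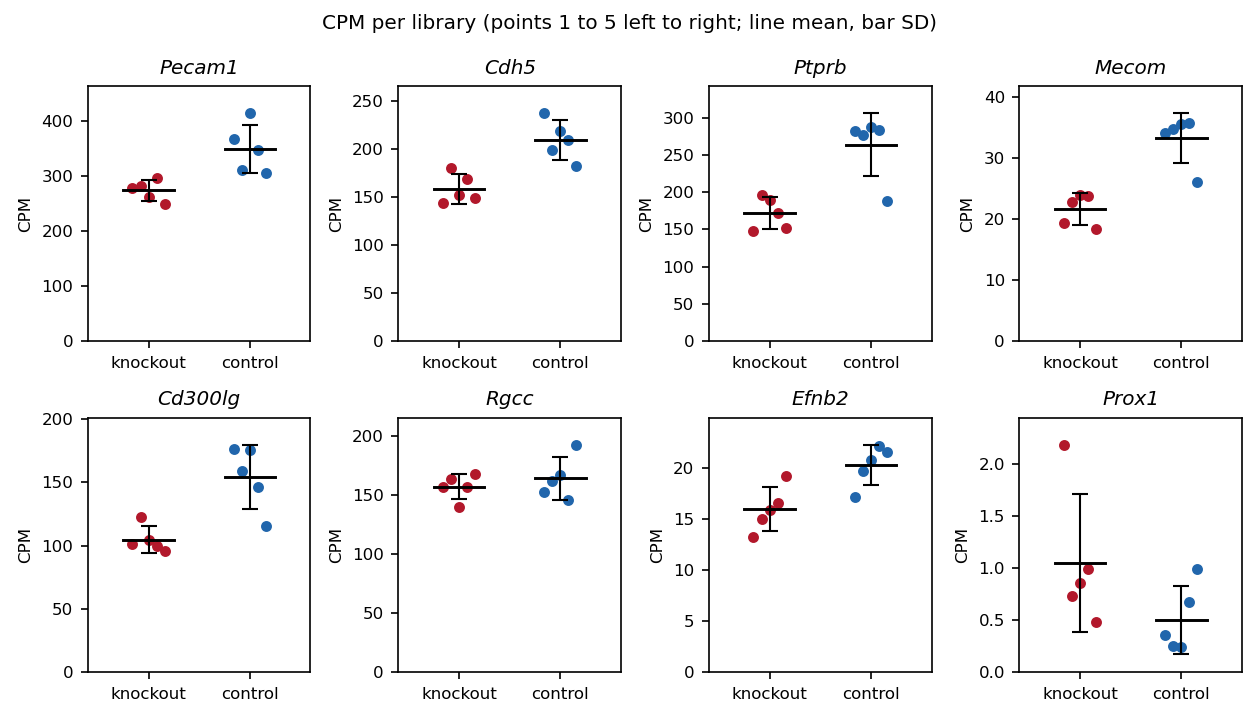
CPM of 8 endothelial genes in each library, knockouts in red on the left and controls in blue on the right of every panel, replicates 1 to 5 from left to right, with a line at the mean and a bar of 1 SD. Mecom, Pecam1 and Cdh5 separate the groups, control 5 lies near the knockouts for Ptprb, Mecom and Cd300lg, and the groups overlap for Rgcc, Efnb2 and Prox1.

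Of the arterial genes, 1 of 4 fell. Efnb2, which encodes the arterial ligand ephrin-B2 (ENSMUSG00000001300, chromosome 8, 8617434 to 8661242, minus strand), had 13.2, 15.0, 15.9, 16.5 and 19.2 CPM in knockouts 1 to 5, against 17.1, 19.7, 20.8, 22.2 and 21.6 CPM in controls 1 to 5. Only knockout 5 reached into the control range. Efnb2 fell to 16.0 ± 2.18 CPM in knockouts, against 20.3 ± 1.98 CPM in controls (log2 fold change -0.35, SE 0.104, adjusted p = 0.046), and the call held in 1 of 10 fits with a library left out. Dll4, the Notch ligand of arteries and tip cells, had 11.4, 12.2, 17.0, 14.5 and 11.0 CPM in knockouts, against 19.8, 17.8, 16.8, 17.4 and 12.7 CPM in controls. Knockout 3 and control 5 made its groups overlap, and its log2 fold change of -0.36 did not pass (SE 0.140, adjusted p = 0.11).

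The connexin genes of arteries overlapped between groups. Gja4, for connexin 37, had 4.94, 8.82, 5.87, 8.10 and 6.02 CPM in knockouts 1 to 5, against 6.07, 8.53, 9.59, 6.62 and 6.21 CPM in controls 1 to 5 (log2 fold change -0.13, 95% interval -0.53 to 0.26, adjusted p = 0.65). Gja5, for connexin 40, had 9.13, 9.12, 12.8, 10.5 and 8.90 CPM in knockouts, against 12.3, 11.5, 11.2, 11.9 and 9.73 CPM in controls (log2 fold change -0.17, 95% interval -0.42 to 0.08, adjusted p = 0.35). The arterial sum was 38.7 to 51.6 CPM in knockouts and 50.2 to 58.4 CPM in controls, a ratio of means of 0.823.

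Of the venous genes 0 of 4 passed by edgeR, while DESeq2 called 1 lower, and at an unadjusted p below 0.05 there were 2. Ephb4, the venous receptor of ephrin-B2 (ENSMUSG00000029710, chromosome 5, 137350109 to 137378669, plus strand), had 46.6, 41.8, 40.8, 45.8 and 35.2 CPM in knockouts 1 to 5, against 45.8, 51.6, 54.0, 54.8 and 45.4 CPM in controls 1 to 5. Knockouts 1 and 4 lay at the level of controls 1 and 5, and the log2 fold change was -0.26 (SE 0.0854, adjusted p = 0.064). Vwf, von Willebrand factor, averaged 49.99 ± 7.62 CPM in knockouts and 58.7 ± 9.39 CPM in controls (adjusted p = 0.20). Selp, the gene of P-selectin, which is stored with von Willebrand factor, averaged 3.12 ± 0.828 CPM in knockouts and 4.23 ± 0.611 CPM in controls (adjusted p = 0.15). Sele, the E-selectin gene of activated venules, had 0.182 to 0.726 CPM in knockouts 2 to 5, 2.47 CPM in knockout 1 and 0.369 to 1.41 CPM in controls, with only 3 to 43 counts per library. Knockout 1, with the highest lymphocyte sums, was the high sample of Sele, whose log2 fold change was -0.02 with that library and -1.11 without it, neither of which passed; whether these are linked was not tested.

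Neither lymphatic gene passed, and both had values above 0. Prox1, the factor that specifies lymphatic endothelium (ENSMUSG00000010175, chromosome 1, 190118035 to 190170714, minus strand), had 2.18, 0.730, 0.858, 0.996 and 0.479 CPM in knockouts 1 to 5, against 0.357, 0.255, 0.246, 0.676 and 0.996 CPM in controls 1 to 5, from 4 to 38 counts per library. The groups overlapped and knockout 1 was the highest library. The log2 fold change of 1.05 had a 95% interval of 0.04 to 2.07 (SE 0.470, adjusted p = 0.15). It was 0.59 to 1.47 when single libraries were left out, the lowest without knockout 1 (adjusted p = 0.35). Lyve1, the hyaluronan receptor of lymphatic vessels and of some tissue macrophages, had 77.6, 68.2, 51.6, 67.7 and 74.0 CPM in knockouts, against 54.9, 74.1, 70.6, 46.0 and 80.9 CPM in controls. Its groups overlapped throughout (log2 fold change 0.05, 95% interval -0.26 to 0.37, adjusted p = 0.84).

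Set side by side, the median log2 fold changes were -0.34 for the general genes (13 of 28 lower), -0.24 for capillary, -0.26 for arterial, -0.25 for venous and 0.55 for lymphatic genes. The ratios of the summed levels, knockout over control, were 0.771 for general, 0.827 for capillary, 0.823 for arterial, 0.841 for venous and 1.05 for lymphatic genes. Lyve1 made up nearly all of the mean lymphatic sum, 67.8 of 68.9 CPM in knockouts and 65.3 of 65.8 CPM in controls. The lymphatic median is the midpoint of Prox1 and Lyve1 and was 0.30 without knockout 1, and the venous one was -0.43 without that library. With the intronic-type score in the fit the medians were -0.29 for capillary, -0.063 for arterial and -0.043 for venous genes. Differences between the classes were not tested and depend on the assignment of genes such as Sox17 to the general class. Of the 6 genes with a control mean below 10 CPM 0 fell by edgeR, and Sox7 and Selp had values below 0 at an unadjusted p below 0.05; DESeq2 called 1, Sox7.

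Other endothelial genes outside the 44 were counted in the same way. Their list was also chosen with earlier results of these data known, so it is no independent support. Of 24 tested, 10 fell (41.7%, against 7.05% of all tested genes), 0 rose and 14 did not pass. The median was -0.32, and the genes that fell included the VEGF receptor gene Flt1 and the angiopoietin receptor gene Tek. Tek had 80.6, 83.9, 82.1, 86.9 and 71.3 CPM in knockouts 1 to 5, against 111.7, 108.0, 109.4, 122.4 and 107.1 CPM in controls 1 to 5, with no overlap (log2 fold change -0.46, SE 0.0632, adjusted p = 0.0020). Fgd5, a guanine exchange factor gene, averaged 26.9 ± 1.58 CPM in knockouts and 36.7 ± 2.54 CPM in controls (-0.45, adjusted p = 0.0030). Flt1 averaged 57.4 ± 6.78 CPM in knockouts and 84.1 ± 10.9 CPM in controls (-0.55, adjusted p = 0.0093). Nrp1, a co-receptor of VEGF and semaphorins, averaged 276 ± 14.9 CPM in knockouts and 342 ± 14.7 CPM in controls (-0.31, adjusted p = 0.010). These 4 calls held in all 10 fits with a library left out. When the B cell and muscle scores were modelled, 2 of the 24 were called lower by edgeR, with 1.2% of all tested genes lower. When the intronic-type score was modelled, 0 of the 24 were called by edgeR, with 0.239% of all tested genes lower.

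Of 7 other venous genes 3 fell and 1 rose, when 7.05% of all tested genes were lower and 5.84% higher. Nrp2 fell by 0.34, Tll1 by 0.68 and Nr2f2 by 0.32. Lrg1 rose to 309 ± 38.6 CPM in knockouts, against 207 ± 37.02 CPM in controls (log2 fold change 0.58, adjusted p = 0.014). Per kilobase of exon Lrg1 stood at 147 CPM in controls, against 1.14 to 9.06 CPM for the other genes of this list. Which cells its RNA came from was not tested. NR2F2 is the venous identity factor, and its call held in 2 of 10 fits with a library left out. Of 10 other arterial genes and of the 5 tested among 8 other lymphatic genes 0 passed by edgeR, with medians of -0.21 and -0.07. At an unadjusted p below 0.05 there were 3 and 2 of them, and DESeq2 called 2 and 1 lower. The 2 lymphatic ones went opposite ways by edgeR, Flt4 at -0.38 (adjusted p = 0.052) and Stab2 at 0.74 (adjusted p = 0.13). Of the 5 tested lymphatic values 3 were below 0.

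Of 10 genes for VEGF, angiopoietin, apelin and related ligands, 1 fell (10%, near the 7.05% of all tested genes). Angpt1, the gene of the TIE2 ligand angiopoietin-1, had 15.9, 10.1, 12.2, 14.5 and 13.0 CPM in knockouts 1 to 5, against 32.5, 24.8, 23.1, 25.96 and 33.6 CPM in controls 1 to 5. The groups lay well apart, at 13.1 ± 2.22 CPM in knockouts and 28.0 ± 4.76 CPM in controls (log2 fold change -1.09, SE 0.135, adjusted p = 0.0012). Angpt1 kept its call in all 10 fits with a library left out and with the intronic-type score modelled (-1.18, adjusted p = 0.032). Vegfa, the main VEGF gene, averaged 114 ± 20.6 CPM in knockouts and 139.6 ± 8.65 CPM in controls and did not pass (adjusted p = 0.089).

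Among 12 genes of mural cells, which surround the vessels, 1 fell by edgeR (8.33%, near the 7.05% of all tested genes). This was Abcc9 (-0.31, adjusted p = 0.041, held in 2 of 10 fits with a library left out). DESeq2 called 3 of the 12 lower, when 8.51% of all tested genes were lower. Of the 12 values 10 were below 0, and 5 genes had an unadjusted p below 0.05, with Des above 0 among them. The summed level of the 12 genes was 877 to 1033 CPM in knockouts and 934 to 1185 CPM in controls. Of 10 macrophage genes 0 passed by edgeR or DESeq2 and 1 had an unadjusted p below 0.05, with a median near 0 (-0.0037). Of 12 T cell genes 9 rose by edgeR (75%, against 5.84% of all tested genes), 8 by DESeq2 and 0 by limma-voom. Their median was 1.73, with a summed level of 22.3 to 168.6 CPM in knockouts and 16.7 to 27.1 CPM in controls. Of 10 B cell genes 4 rose by edgeR (40%, against the same 5.84%), 2 by DESeq2 and 0 by limma-voom. The 9 tested muscle genes, the 9 tested genes of red cells and platelets and the 2 tested of 5 genes of lymph node venules had 0 calls by edgeR or DESeq2 and 0 unadjusted p-values below 0.05. Of the 3 untested venule genes, Glycam1 had 7.93 CPM in knockout 1, 0 to 0.863 CPM in the other knockouts and 0 to 0.176 CPM in controls. Chst4 had 0.804 CPM in knockout 1, 0 to 0.137 CPM in the other knockouts and 0 to 0.0586 CPM in controls. Madcam1 stood less apart, at 0.747 CPM in knockout 1, 0 to 0.479 CPM in the other knockouts and 0.0637 to 0.615 CPM in controls. Of the 2 tested genes, Fut7 was highest in knockout 1 (1.61 CPM) and Enpp2 in control 5 (641 CPM, against 583 CPM in knockout 1). Knockout 1 was thus also the high library of Glycam1 and Chst4, and with no filter on low counts 1 gene of this list was called higher. Of 12 adipocyte genes 3 fell and 1 rose (33.3% called, against 12.9% of all tested genes), with log2 fold changes from -1.51 to 0.48. Their summed level was 35671 to 46686 CPM in knockouts and 35075 to 42427 CPM in controls. Whether these other lists bear on the endothelial values was not tested beyond the covariates above.

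**Figure D5:**
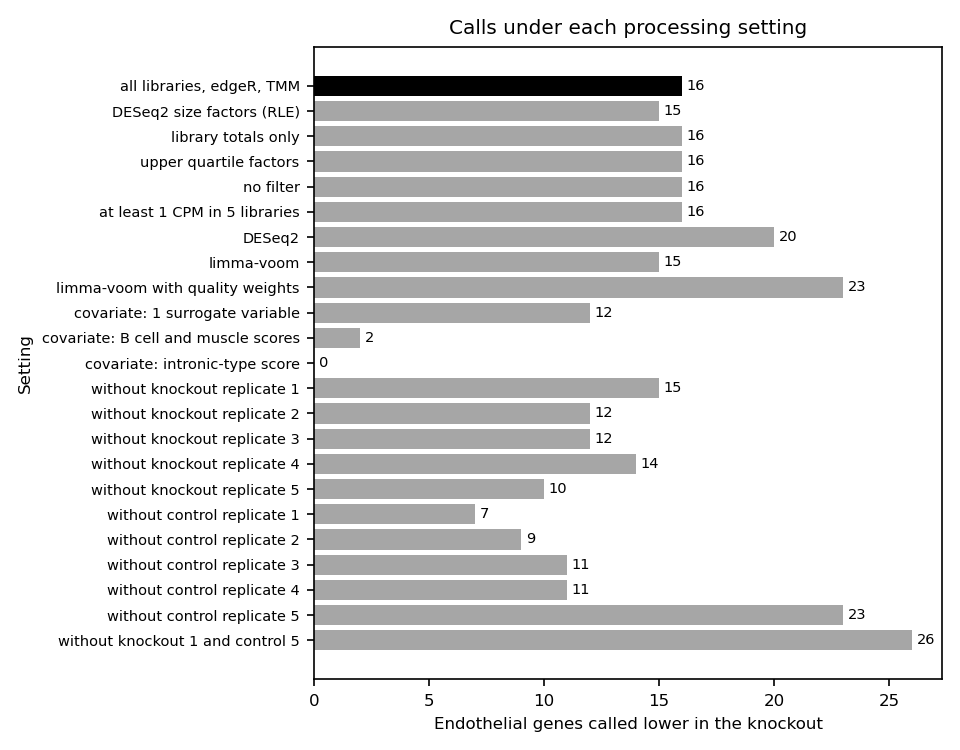
Number of the endothelial genes called lower in the knockout (adjusted p below 0.05) under each setting, in black with all libraries by edgeR with TMM factors and in grey otherwise. The bars run from 0 with the intronic-type score in the fit and 2 with scores of B cell and muscle genes to 26 without knockout 1 and control 5.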

How the data were processed

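Total RNA from 10 libraries of inguinal fat was prepared with ribosomal depletion and a strand-marking kit, per the labels' protocols. The authors deposited whole-number counts per gene for all 10 libraries in a single table. Per the submitters' processing notes, the tools were STAR 2.5.2b, featureCounts 1.5.1 and DESeq2 1.16.0 and the genome was GRCm38. How the counting treated strand and multi-mapping reads, and with which annotation, are points not given in the sources used here. Overlapping genes may share reads or have lost them, which was not tested.

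Symbols and positions came from GENCODE M21 (GRCm38). Genes were kept by filterByExpr in edgeR 4.0.16 (R 4.3.3), scaled with TMM factors and tested with the two-sided quasi-likelihood test on 5 knockout against 5 control libraries, with Benjamini-Hochberg adjustment over all 15927 tested genes and calls at an adjusted p below 0.05. Standard errors are the log2 fold change divided by the square root of F. CPM values use TMM-scaled totals, and log2 CPM a prior count of 2. The scripts were tested on simulated counts. No library was a duplicate of another of its group, with a chi-square per degree of freedom of 6.57 to 26.2. Pairs of a knockout and a control were not compared in this way. Intronic-type transcripts are 786 genes annotated TEC or sense intronic. Alternatives used limma 3.58.1, DESeq2 1.42.0 and sva 3.50.0.

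The endothelial genes and the gene lists were chosen with earlier results of these data known. All 44 genes are named. Every library is given for Pecam1, Cdh5, Prox1, Lyve1, Gja4, Gja5, Dll4, Efnb2, Ephb4, Cd300lg, Rgcc, Plvap and Nos3. The same holds for the 4 genes of smallest p below 0 and for every tested gene above 0. From the other endothelial, ligand and mural lists up to 4 called genes of smallest p are named. The called genes of the T cell, B cell and adipocyte lists are counted and not named.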

Additional observations from a re-analysis of the deposited data

Results flagged for a closer look

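Of 130 groups of 5 libraries examined, 12 held a library whose gap to its nearest neighbour exceeded 0.71 of the range of the group; chance alone gives about 1 in 20. Control 5 was set apart in 5 of them. It had 188 CPM of Ptprb while the other controls had 276 to 287 CPM, 66.5 CPM of Ushbp1 against 90.8 to 98.8 CPM, and 26.1 CPM of Mecom against 34.1 to 35.8 CPM. Its T cell sum was 27.1 CPM against 16.7 to 19.4 CPM in the other controls, and its muscle sum was 544 CPM against 24.6 to 74.8 CPM.

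Knockout 1 was set apart in 4 groups. It had 17.9 CPM of Lyl1 while the other knockouts had 11.5 to 12.9 CPM, and 2.47 CPM of Sele against 0.182 to 0.726 CPM. Its T cell sum was 168.6 CPM against 22.3 to 45.1 CPM in the other knockouts, and its B cell sum was 472 CPM against 23.7 to 59.7 CPM.

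Knockout 2 had 39.4 CPM of Nos3 while the other knockouts had 26.7 to 30.1 CPM. Knockout 5 had a sum of 264 CPM over the other arterial genes, against 311 to 319 CPM in the other knockouts. Control 3 had a B cell sum of 34.8 CPM, against 14.5 to 19.6 CPM in the other controls.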

How the results depend on the processing

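No paired analysis was possible because the labels give the knockouts and controls no shared replicate numbers. The count of 16 lower genes was 15 to 20 under other scalings, filters, DESeq2 and limma-voom. Under these settings 2.55% to 8.51% of all tested genes were lower. The count was 23 with voom quality weights, when 11.9% of all tested genes were lower. With 1 surrogate variable it was 12, when 4.12% were lower. It was 2 with the B cell and muscle scores, 0 with the intronic-type score and 26 without knockout 1 and control 5. Under any setting run, 0 genes were higher. Leaving out single libraries gave 7 to 23 lower genes, 6 to 19 general, 1 to 3 capillary, 0 to 1 arterial and 0 to 1 venous ones, and 537 to 3094 called genes in all. The number of all tested genes called was 2053, against 3605 with quality weights, 473 with the B cell and muscle scores, 49 with the intronic-type score and 3774 without both libraries. General genes called lower were 1 with the B cell and muscle scores, 0 with the intronic-type score and 20 without both libraries, against 13. Capillary genes were 4 with quality weights, 1 with the B cell and muscle scores, 0 with the intronic-type score and 4 without both, against 2. The arterial call was lost (0) with RLE factors, no filter, the surrogate variable and either set of scores. Of venous genes 1 was lower by DESeq2, with quality weights, with the surrogate variable and without both libraries, against 0. The causes were not tested. Tcf7l2 kept its call under every setting run.

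Genes that turned direction had not passed with all libraries by edgeR without covariates, and no turned value passed. Of them Dll4, Egfl7 and Icam2 passed as lower without both libraries (adjusted p = 0.036, 0.016 and 0.018), Dll4 in 2 and Egfl7 in 1 of 10 fits without a library, and Egfl7 with quality weights. With the surrogate variable these were Nos3 (0.052), Lyl1 (-0.067), Gja4 (0.018) and Lyve1 (-0.0024). With the B cell and muscle scores they were Nos3 (0.14), Lyl1 (-0.18), Gja4 (0.091) and Lyve1 (-0.062). With the intronic-type score they were Icam2 (0.10), Egfl7 (0.18), Nos3 (0.090), Sox18 (0.33), Gja5 (0.082), Dll4 (0.035), Vwf (0.019), Sele (0.081) and Lyve1 (-0.25). Without both libraries they were Lyl1 (-0.017) and Rgcc (0.0012). Leaving out single libraries gave -0.14 to 0.056 for Nos3, -1.11 to 0.28 for Sele, -0.047 to 0.15 for Lyve1, -0.10 to 0.0027 for Rgcc and -0.046 to 0.13 for Lyl1. Low counts limited Sele, Prox1 and Ramp3.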
